A study of Arabidopsis thaliana with 18 samples.

Results

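Root hairs are tubular outgrowths of single epidermal cells of the root, and they take up water and nutrients. RHD6 and RSL4 are transcription factors of the basic helix-loop-helix class: RHD6 acts early, in setting up the hair cell, and RSL4 acts after it and drives hair growth. Among the genes used while a hair elongates are alpha-expansins, which loosen the cell wall, and structural or surface proteins of the wall. The 9 genes described here are RHD6 and RSL4, the expansin genes EXPA7 and EXPA18, and 5 genes for wall and surface proteins. These 5 are COBL9, which codes for a membrane-anchored protein of the COBRA family needed for hair tip growth, PRP1 and PRP3, which code for proline-rich wall proteins, and LRX1 and LRX2, which code for leucine-rich repeat extensins that act together in shaping the hair. They were chosen by name and matched by gene identifier, and make up 9 of the 32548 genes of the expression table.

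Messenger RNA was measured in whole 7-day-old Arabidopsis thaliana seedlings grown on plates at 22 °C in days of 16 h light and 8 h dark. There were 6 groups of 3 libraries, 18 in all. Seedlings of 3 genotypes were kept at 37 °C for 1 h before harvest, and seedlings of the same genotypes were left at 22 °C. The genotypes were sant-null, labelled quadruple mutants and tied by the design text to SANT1/2/3/4, hda6, labelled an EMS line, with HDA6, a histone deacetylase gene, altered, and the wild type Col-0. The sources used here name no alleles. Nothing in the labels tells whether the 3 libraries of a group are separate cultures, so p-values reflect the spread among libraries alone, and that spread may be technical. The stated question was the part of SANT1/2/3/4 in transcription under heat.

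Expression is given as FPKM, which counts fragments per gene scaled to the gene's length and to library depth, with a single value per group from the authors and therefore no SD. Errors come from the authors' deposited comparison tables, as the standard error (SE) of a log2 fold change, and a gene was called at an adjusted p under 0.05. The normalised counts of a table, as the mean over the libraries it compares, summed to 20.7 to 23.2 M over all genes. HDA6 itself had 3.44 FPKM in hda6 at 37 °C and 7.59 FPKM in hda6 at 22 °C, against 3.96 and 6.83 FPKM in Col-0 at the same temperatures, so its transcript level does not check the hda6 label. SANT1 to SANT4 are not named in the gene annotation used here and were not checked. The seedlings held both root and leaf RNA: the summed level of 6 leaf mesophyll markers lay between 13067 and 17030 FPKM over the 6 groups, that of 7 endodermis markers between 13.1 and 40.6 FPKM, and that of the 9 root hair genes between 5.38 and 43.8 FPKM. The endodermis marker ESB1 was listed at 0 in Col-0 at 37 °C, and no other of the markers was at 0 in any group. In such whole-seedling RNA, fewer hair cells and less RNA per hair cell cannot be told apart.

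In the TAIR10.1 annotation of RefSeq, 7 of the 9 genes lie on chromosome 1. RHD6 (AT1G66470, chr1:24795214-24797015) and RSL4 (AT1G27740, chr1:9654475-9656089) are on the plus strand, as are EXPA7 (AT1G12560, chr1:4276505-4277969) and EXPA18 (AT1G62980, chr1:23331563-23333246). PRP1 (AT1G54970, chr1:20504901-20506504), LRX1 (AT1G12040, chr1:4069992-4072681) and LRX2 (AT1G62440, chr1:23112933-23115293) are also on the plus strand of chromosome 1. PRP3 (AT3G62680) is at chr3:23182722-23184042 on the plus strand and COBL9 (AT5G49270), which RefSeq names SHV2, is at chr5:19971884-19974530 on the minus strand. The members include pairs of one family. Over the aligned bases, with gaps left out, the coding sequences were 75.4% identical between EXPA7 and EXPA18. The same value was 83.8% between PRP1 and PRP3 and 78.2% between LRX1 and LRX2. With gaps counted, identity was 71.6%, 74.5% and 70.3% in these pairs. The longest run of identical bases was 21, 33 and 30 bases. No run of 50 exon bases of 8 of the members was found more than once in the same orientation in the genome. LRX1 had 44 windows found more than once, among 2641 (1.67%). Repeats within the gene itself were counted too, and a single copy on the opposite strand would have been missed. EXPA7 overlaps AT1G12570 on the opposite strand by 23 bases and EXPA18 overlaps AT1G62978 by 46 bases. AT1G62978 was listed at 0 FPKM in all groups.

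The sequence before the gene start is shown for the 5 members that carry a match to the root hair element, a short promoter element described from hair-expressed genes that include EXPA7, so that the presence of matches in these genes is not independent evidence. Each line gives the 250 bases before the annotated start, 5′ to 3′ on the gene's strand, from the TAIR10.1 genome, with the matched bases in capitals. The windows are chr1:4276255-4276504 for EXPA7, chr1:23331313-23331562 for EXPA18, chr1:20504651-20504900 for PRP1, chr3:23182472-23182721 for PRP3 and chr1:4069742-4069991 for LRX1, all on the plus strand.
EXPA7: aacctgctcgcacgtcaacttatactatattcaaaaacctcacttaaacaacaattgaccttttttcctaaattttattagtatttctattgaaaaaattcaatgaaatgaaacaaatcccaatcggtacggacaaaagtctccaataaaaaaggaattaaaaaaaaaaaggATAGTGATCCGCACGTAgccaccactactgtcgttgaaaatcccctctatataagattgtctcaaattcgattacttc
EXPA18: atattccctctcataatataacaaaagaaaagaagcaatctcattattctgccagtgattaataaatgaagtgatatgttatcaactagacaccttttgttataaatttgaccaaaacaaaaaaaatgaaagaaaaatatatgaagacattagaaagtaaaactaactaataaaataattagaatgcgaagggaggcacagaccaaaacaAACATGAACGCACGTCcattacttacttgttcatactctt
PRP1: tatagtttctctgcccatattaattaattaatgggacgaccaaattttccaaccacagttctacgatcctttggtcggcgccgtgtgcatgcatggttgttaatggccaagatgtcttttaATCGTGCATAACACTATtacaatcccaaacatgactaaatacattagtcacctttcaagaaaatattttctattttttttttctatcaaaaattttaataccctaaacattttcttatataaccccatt
PRP3: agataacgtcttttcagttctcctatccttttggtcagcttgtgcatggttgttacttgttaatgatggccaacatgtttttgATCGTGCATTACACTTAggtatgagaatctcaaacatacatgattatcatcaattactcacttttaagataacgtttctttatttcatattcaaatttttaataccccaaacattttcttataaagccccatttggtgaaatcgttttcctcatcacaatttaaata
LRX1: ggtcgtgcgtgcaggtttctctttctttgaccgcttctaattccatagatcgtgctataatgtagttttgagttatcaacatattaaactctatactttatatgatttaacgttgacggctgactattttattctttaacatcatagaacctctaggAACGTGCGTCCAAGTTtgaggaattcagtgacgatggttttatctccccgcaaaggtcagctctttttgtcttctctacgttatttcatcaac
The match lay on the gene's own strand at positions -78 to -62 in EXPA7 and -40 to -25 in EXPA18, counted back from the gene start, and on the opposite strand at -129 to -113 in PRP1, -167 to -151 in PRP3 and -93 to -78 in LRX1. The element was found in 5 of the 9 member windows, against 207 of the 27443 windows of the same length before protein-coding genes (0.754%). The shorter motif GCACG, searched on both strands and contained in each of the 5 element matches, was found in 7 of 9 windows, against 7.94% of all windows. The windows of RHD6 and LRX2 held no GCACG, and LRX2 has no annotated untranslated leader, so that its window ends at the start codon. Of motifs known from other settings, the G-box CACGTG was found in 0 of 9 (6.49% of all windows), the short heat shock element GAANNTTC in RHD6 alone at -190 to -183 (9.55% of all windows), and the same motif followed directly by NNGAA in 0 of 9 (0.386%). A match describes the letters only.

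**Figure D1:**
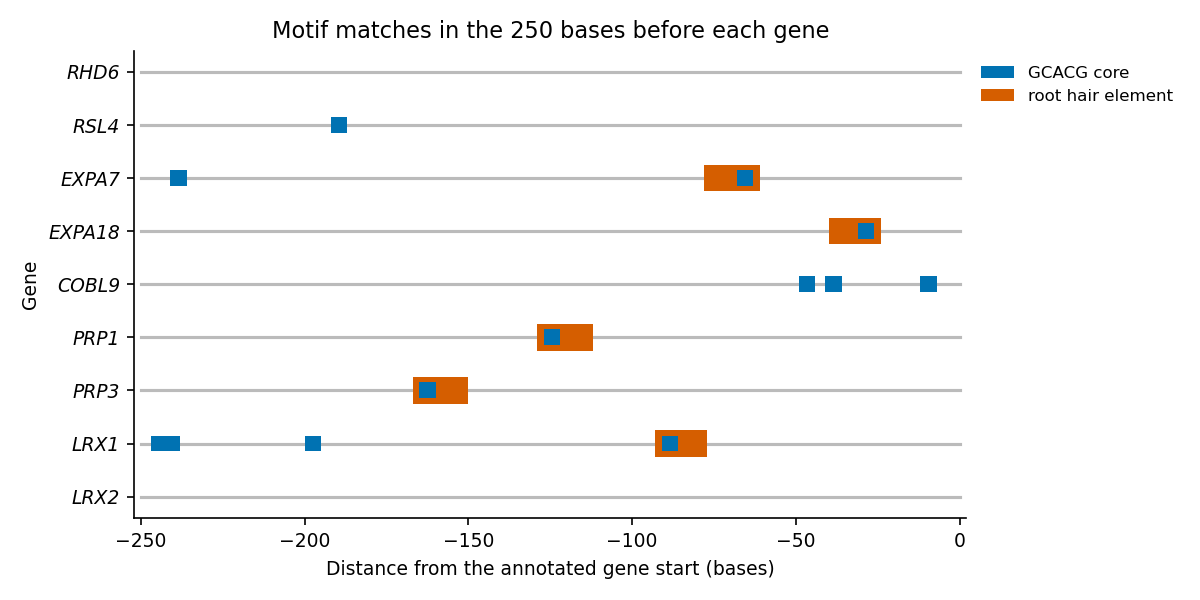
Positions of motif matches in the 250 bases before the annotated start of each of the 9 genes (x axis, bases from the gene start; 1 row per gene; wide bars for the root hair element, narrow bars for GCACG). Root hair element matches are seen in EXPA7, EXPA18, PRP1, PRP3 and LRX1, and the rows of RHD6 and LRX2 hold neither motif.

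The levels of the 9 genes lay between 0.0795 and 17.2 FPKM. In Col-0 at 22 °C the order of the levels was PRP3, EXPA7, PRP1, EXPA18, LRX1, LRX2, COBL9, RHD6 and RSL4, and with no spread for FPKM neighbours in this order could not be tested. PRP3 was the highest of the 9 in every group and had 2.88 FPKM in sant-null at 37 °C, 4.28 FPKM in hda6 at 37 °C and 2.52 FPKM in Col-0 at 37 °C, against 15.0, 17.2 and 11.2 FPKM in sant-null, hda6 and Col-0 at 22 °C. RSL4 was the lowest of the 9 in each genotype at 22 °C and in Col-0 at 37 °C. It had 0.179, 0.213 and 0.0795 FPKM in sant-null, hda6 and Col-0 at 37 °C, against 0.614, 0.684 and 0.756 FPKM at 22 °C. The lowest in sant-null and hda6 at 37 °C was COBL9, with 0.140 and 0.113 FPKM. For each of the 9 genes, every 37 °C group lay below every 22 °C group.

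**Figure D2:**
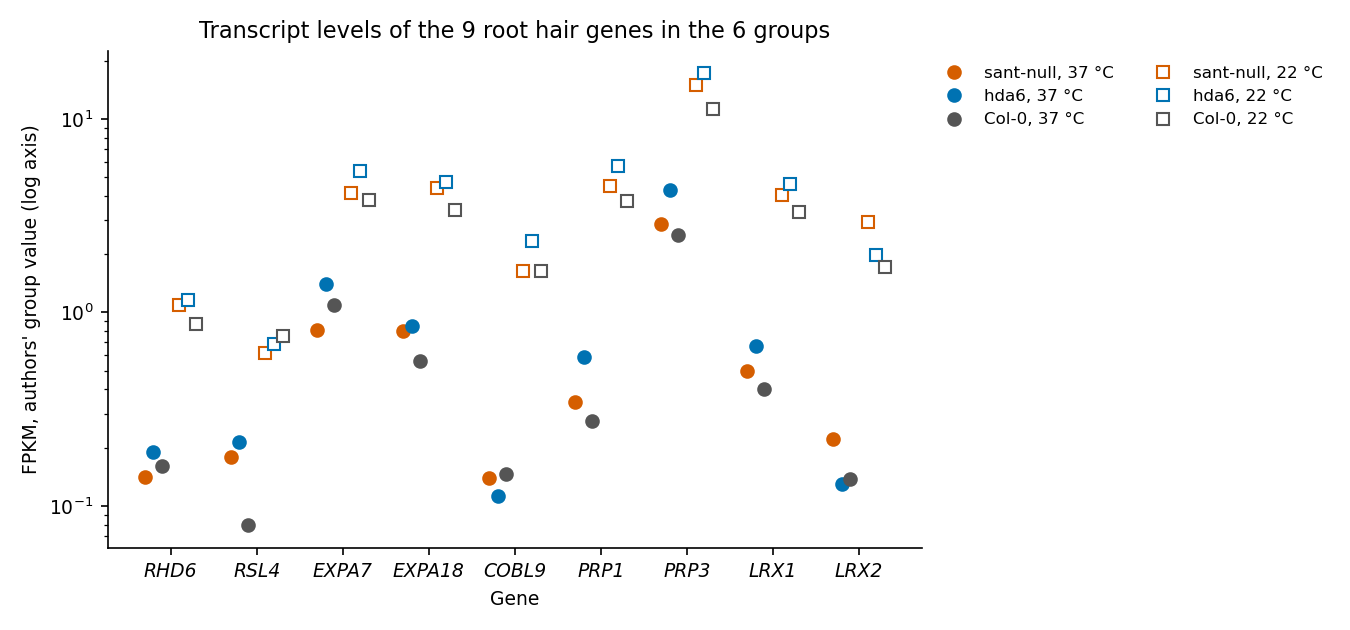
FPKM of each of the 9 genes (x axis) in the 6 groups, on a log10 axis, 1 point per group because the authors give 1 value per group. The 37 °C points lie below the 22 °C points in all 9 genes, and PRP3 is the highest gene in each group.

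After 1 h at 37 °C the root hair genes were lower than at 22 °C in all genotypes. In sant-null 8 of 9 were called lower, against 23.8% of all genes tested, with a median log2 fold change of -1.90 over the members and -0.07 over all genes. In hda6 8 of 9 were called lower, against 25.2% of all genes, with medians of -1.56 and -0.06. For Col-0 the authors' deposited table had 9 of 9 called lower after heat, against 29.9% of all 23195 genes, with medians of -2.02 and -0.09. On the scale of the FPKM ratios, explained below, the same 9 of 9 stood beside 72.5% of all genes called lower for heat in Col-0. The gene not called in either mutant was RSL4. The heat comparisons within the mutants were derived from the authors' deposited tables with Wald tests and Benjamini-Hochberg adjustment, and share the Col-0 tables, so their values are given side by side only.

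The deposited scales differ for heat. The deposited log2 fold changes lie above the log2 ratios of the deposited FPKM values by a constant: the median difference (FPKM ratio minus fold change) was -1.05 for sant-null, -1.06 for hda6 and -1.01 for Col-0. A fold change of 0 in the deposited heat table is thus about a 2-fold lower FPKM. The 9 members were lower on either scale, and log2 fold changes below are on the deposited scale, while FPKM values are levels. In the comparisons between genotypes at one temperature the shift was within 0.09. The split of all called genes moved with the scale, though each count of called members stayed within 1.5 times. For heat, the genes called higher and lower numbered 6075 and 5066 in sant-null (1080 and 15309 by FPKM scale), 5913 and 5159 in hda6 (935 and 14775) and 6979 and 6930 in Col-0 (1450 and 16823). Against Col-0 at 22 °C they numbered 2059 and 2096 in sant-null (3022 and 868) and 1430 and 1056 in hda6 (1801 and 533), and at 37 °C 1026 and 880 in sant-null (1230 and 577).

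The early regulator RHD6 had 0.141 FPKM in sant-null, 0.189 FPKM in hda6 and 0.161 FPKM in Col-0 at 37 °C, against 1.09, 1.16 and 0.876 FPKM in the same genotypes at 22 °C. Its derived log2 fold changes were -1.90 ± 0.71 in sant-null (SE; adjusted p = 0.0171) and -1.56 ± 0.67 in hda6 (adjusted p = 0.0364), against -1.43 ± 0.44 in Col-0 in the authors' deposited table (adjusted p = 0.00242). RHD6 thus fell in all 3 genotypes. The derived heat change of RSL4 was -0.71 ± 0.83 in sant-null (95% interval -2.33 to 0.919, adjusted p = 0.501) and -0.60 ± 0.84 in hda6 (-2.26 to 1.05, adjusted p = 0.574). For Col-0 the authors' deposited table gave -2.19 ± 0.56 for RSL4 (SE; adjusted p = 2.09e-04). Both intervals hold no change as well as the Col-0 value. RSL4 rests on few reads: the mean normalised count implied by the authors' deposited table was 7.00 in Col-0 at 37 °C, against 32.0 in Col-0 at 22 °C.

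Among the expansins, EXPA7 had 0.811, 1.40 and 1.09 FPKM in sant-null, hda6 and Col-0 at 37 °C, against 4.16, 5.35 and 3.80 FPKM at 22 °C. It fell by 1.31 ± 0.34 in sant-null (log2, SE; adjusted p = 4.31e-04) and by 0.87 ± 0.32 in hda6 (adjusted p = 0.0150), and had the smallest fall of the 9 in Col-0, by 0.80 ± 0.23 in the authors' deposited table (adjusted p = 0.00101). EXPA18 had 0.801, 0.848 and 0.564 FPKM in sant-null, hda6 and Col-0 at 37 °C, against 4.39, 4.75 and 3.39 FPKM at 22 °C. Its log2 fold changes of -1.40 ± 0.36 in sant-null (SE; adjusted p = 3.45e-04) and -1.42 ± 0.36 in hda6 (adjusted p = 2.56e-04) stood beside -1.57 ± 0.25 in Col-0 in the authors' deposited table (adjusted p = 8.71e-10). Both expansin genes fell in each genotype. The neighbour that overlaps EXPA7, AT1G12570, had a log2 fold change of -0.38 ± 0.23 for heat in Col-0 in the authors' deposited table (adjusted p = 0.147).

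The genes for wall and surface proteins included the largest falls. PRP1 had 0.344, 0.587 and 0.275 FPKM in sant-null, hda6 and Col-0 at 37 °C, against 4.48, 5.71 and 3.76 FPKM at 22 °C. Its log2 fold change was -2.67 ± 0.50 in sant-null (SE; adjusted p = 4.45e-07) and -2.23 ± 0.46 in hda6 (adjusted p = 3.95e-06), and the lowest of the 9 in Col-0, at -2.79 ± 0.29 in the authors' deposited table (adjusted p = 5.52e-21). The related PRP3, with the levels given above, fell by 1.33 ± 0.25 in sant-null (adjusted p = 3.74e-07), by 0.95 ± 0.19 in hda6 (adjusted p = 2.74e-06) and by 1.14 ± 0.15 in Col-0 in the authors' deposited table (adjusted p = 9.25e-13). The difference between PRP1 and PRP3 was not tested.

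COBL9 had 0.140, 0.113 and 0.146 FPKM in sant-null, hda6 and Col-0 at 37 °C, against 1.64, 2.35 and 1.64 FPKM at 22 °C. The largest fold difference in FPKM of any member was that of COBL9 in hda6, 20.8-fold lower at 37 °C, followed by LRX2 in hda6 at 15.3-fold and PRP1 in Col-0 at 13.7-fold. On the deposited scale COBL9 was 10.1-fold lower in hda6. These values rest on few reads: in hda6 at 37 °C the implied mean normalised count was 11.1 for COBL9 and 13.1 for LRX2. The log2 fold change of COBL9 was -2.51 ± 0.61 in sant-null (SE; adjusted p = 1.20e-04), -3.33 ± 0.64 in hda6 (adjusted p = 9.32e-07) and -2.51 ± 0.31 in Col-0 in the authors' deposited table (adjusted p = 7.28e-15).

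LRX1 had 0.499, 0.672 and 0.401 FPKM in sant-null, hda6 and Col-0 at 37 °C, against 4.03, 4.64 and 3.30 FPKM at 22 °C, and LRX2 had 0.223, 0.130 and 0.137 FPKM, against 2.93, 1.99 and 1.71 FPKM. The derived log2 fold changes of LRX1 were -1.95 ± 0.39 in sant-null (SE; adjusted p = 3.06e-06) and -1.73 ± 0.39 in hda6 (adjusted p = 3.93e-05), against -2.02 ± 0.24 in Col-0 in the authors' deposited table (adjusted p = 1.00e-16). Those of LRX2 were -2.65 ± 0.52 in sant-null (adjusted p = 1.13e-06) and -2.86 ± 0.58 in hda6 (adjusted p = 3.72e-06), against -2.60 ± 0.32 in Col-0 in the authors' deposited table (adjusted p = 1.11e-15). All 5 wall and surface genes fell in all 3 genotypes.

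**Figure D3:**
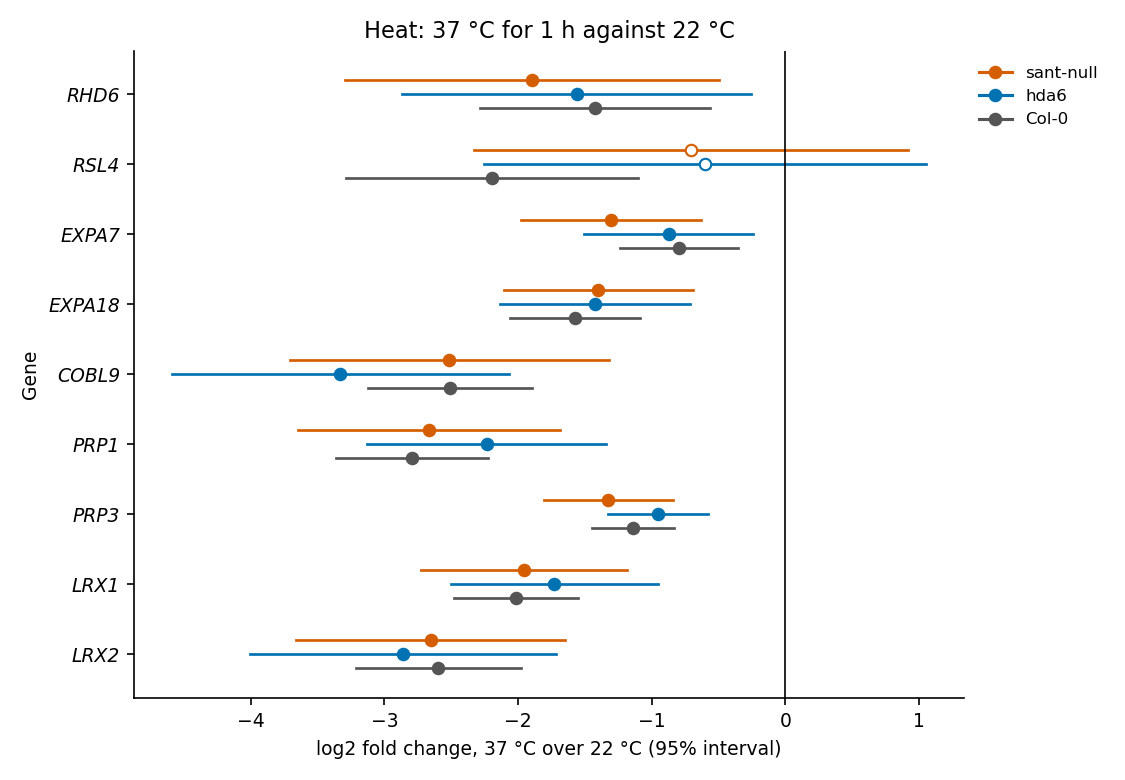
Log2 fold change of 37 °C over 22 °C for the 9 genes in sant-null, hda6 and Col-0, with 95% intervals (x axis, deposited scale; filled points are called at an adjusted p under 0.05). All points lie below 0, and the open points are those of RSL4 in sant-null and hda6.

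The difference of the heat response between a mutant and Col-0, tested directly, was called for 0 of 9 genes in sant-null and for 0 of 9 in hda6, with 0 at an unadjusted p under 0.05 in either (Wald test). Of all genes, 0.921% were called in sant-null minus Col-0, 117 above and 80 below 0 (75 and 119 by FPKM scale), and 5.57% in hda6 minus Col-0, 465 above and 683 below 0 (245 and 859). RSL4 had the largest difference, 1.49 ± 0.83 in sant-null minus Col-0 (95% interval -0.138 to 3.11, adjusted p = 0.685) and 1.59 ± 0.84 in hda6 minus Col-0 (-0.0647 to 3.25, adjusted p = 0.355). RSL4 was called in Col-0 and not in the mutants, but a difference between the genotypes was not shown. For the well-covered PRP3 the interval was narrower, -0.670 to 0.298 in sant-null minus Col-0 and -0.184 to 0.565 in hda6 minus Col-0. COBL9 had an interval of -2.08 to 0.441 in hda6 minus Col-0, which holds no change as well as a much stronger fall in hda6.

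In sant-null at 22 °C the median log2 fold change was 0.20 over the 9 hair genes and 0.01 over all genes. Of the 9, 7 lay above 0 and 2 below, with 2 at an unadjusted p under 0.05 (DESeq2). LRX2 was the only one called, with 2.93 FPKM in sant-null against 1.71 FPKM in Col-0 and a log2 fold change of 0.69 ± 0.15 in the authors' deposited table (SE, 95% interval 0.401 to 0.983; adjusted p = 5.79e-05). That is 1 of 9 called higher, beside 8.82% of all genes, and 0 called lower, beside 8.98%. The other 8 had log2 fold changes between -0.39 ± 0.33 (RSL4, adjusted p = 0.481) and 0.34 ± 0.18 (PRP3, adjusted p = 0.194) in the authors' deposited table. The paralogue LRX1 had 0.20 ± 0.28 (95% interval -0.337 to 0.744, adjusted p = 0.697) in the authors' deposited table, an interval that holds the LRX2 value.

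At 37 °C no hair gene was called in sant-null against Col-0 in the authors' deposited table (DESeq2), with 0 also at an unadjusted p under 0.05, beside 4.72% of all genes called higher and 4.05% called lower. LRX2 had 0.63 ± 0.49 (SE; adjusted p = 0.569) in the authors' deposited table, near its value at 22 °C but with a wider error, at a mean normalised count of 23.0 in sant-null and 14.8 in Col-0. EXPA7 was the lowest, at -0.47 ± 0.31 (SE; adjusted p = 0.455) in the authors' deposited table. RSL4 was the highest there, 2.14-fold with a 95% interval of 0.761 to 6.03 (adjusted p = 0.497). The counts behind RSL4 were 10.5 in sant-null and 4.88 in Col-0.

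In hda6 at 22 °C both expansin genes, COBL9 and both proline-rich protein genes rose. The authors' deposited table called 5 of 9 higher, beside 6.1% of all genes, and 0 lower, beside 4.5%, with a median of 0.44 over the members and 0.01 over all genes. PRP3 had 17.2 FPKM in hda6 against 11.2 FPKM in Col-0 and a log2 fold change of 0.57 ± 0.11 in the authors' deposited table (SE; adjusted p = 6.43e-06). PRP1 had 0.56 ± 0.13 (adjusted p = 5.71e-04) and COBL9 0.47 ± 0.15 (adjusted p = 0.0162) in the authors' deposited table. EXPA7 and EXPA18 each had 0.44, with SEs of 0.15 and 0.14 (adjusted p = 0.0320 and 0.0194) in the authors' deposited table. All of these are changes of less than 2-fold, between 1.36-fold and 1.49-fold.

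The other 4 members did not pass in hda6 at 22 °C. LRX1 had the same size of difference as the expansins, 0.44, but an SE of 0.28 (adjusted p = 0.402) in the authors' deposited table. RHD6 had 0.36 ± 0.26 (adjusted p = 0.470), LRX2 had 0.17 ± 0.16 (adjusted p = 0.630) and RSL4 had -0.20 ± 0.31 (adjusted p = 0.805) in the authors' deposited table. Thus no regulator was called. At 22 °C the FPKM of LRX2 stood at 1.99 in hda6 and 1.71 in Col-0.

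In hda6 at 37 °C PRP3 and LRX1 were called higher, 2 of 9 beside 9.06% of all genes, and 0 were lower, beside 9.41%. PRP3 had 4.28 FPKM in hda6 against 2.52 FPKM in Col-0, with 0.77 ± 0.16 (SE; adjusted p = 2.04e-05) in the authors' deposited table. LRX1 had 0.672 FPKM in hda6 against 0.401 FPKM in Col-0, with 0.73 ± 0.27 (SE; adjusted p = 0.0405) in the authors' deposited table. PRP1 lay just outside the threshold, at 1.12 ± 0.44 (adjusted p = 0.0560), in the authors' deposited table. The highest fold change was that of RSL4, 1.39 ± 0.79 (adjusted p = 0.235), at 12.2 normalised counts in hda6 and 4.66 in Col-0 in the authors' deposited table. COBL9 and LRX2, at -0.35 ± 0.63 (adjusted p = 0.788) and -0.09 ± 0.56 (adjusted p = 0.944) in the authors' deposited table, were the members with a negative value.

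**Figure D4:**
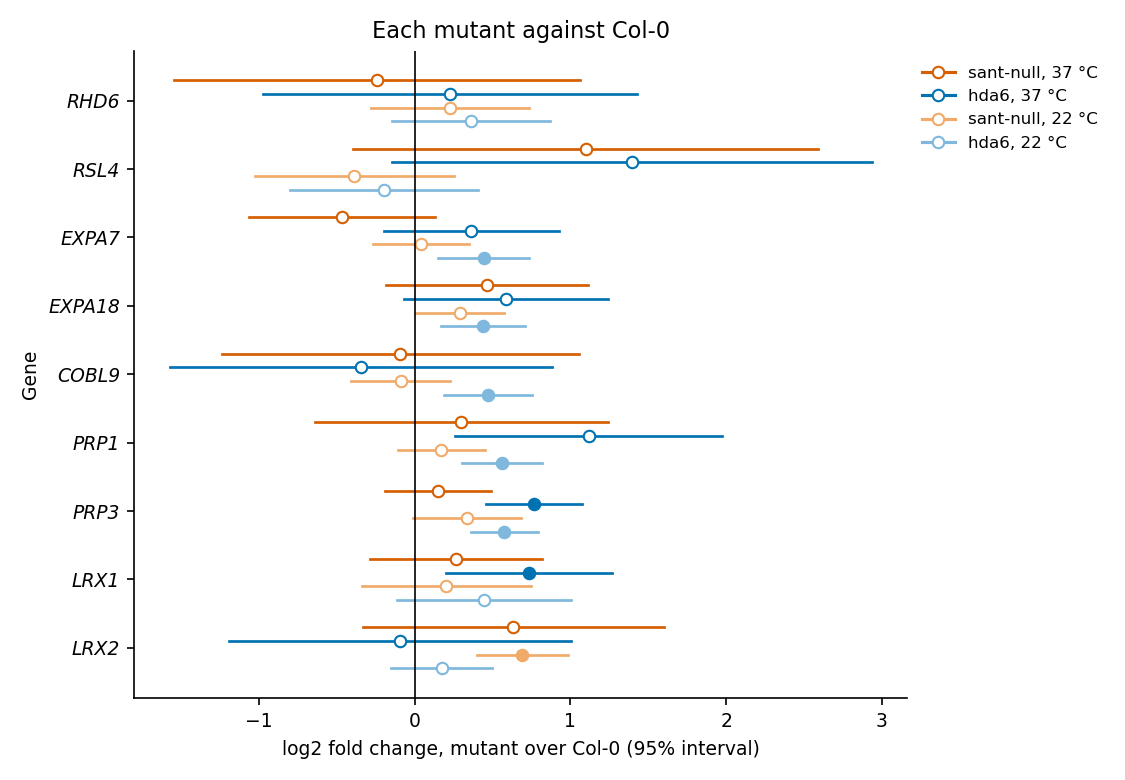
Log2 fold change of sant-null and of hda6 over Col-0 at 37 °C and at 22 °C for the 9 genes, with 95% intervals (x axis, deposited scale; filled points are called at an adjusted p under 0.05). The filled points are LRX2 in sant-null at 22 °C, 5 genes in hda6 at 22 °C, and PRP3 and LRX1 in hda6 at 37 °C.

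Set directly against each other, sant-null and hda6 had 0 of 9 genes called different at 22 °C and 0 of 9 at 37 °C (Wald test), with 3 and 2 at an unadjusted p under 0.05, beside 3.08% and 4.47% of all genes called. All called genes split into 247 higher and 459 lower in sant-null at 22 °C (313 and 339 by FPKM scale) and 503 and 419 at 37 °C (606 and 292). At 22 °C LRX2 had 2.93 FPKM in sant-null against 1.99 FPKM in hda6, a log2 fold change of 0.52 ± 0.22 (SE, 95% interval 0.0846 to 0.954; adjusted p = 0.282). COBL9 had 1.64 FPKM in sant-null against 2.35 FPKM in hda6, a log2 fold change of -0.56 ± 0.22 (SE; adjusted p = 0.190). At 37 °C PRP3 had -0.61 ± 0.23 (SE; adjusted p = 0.132) and EXPA7 had -0.83 ± 0.42 (SE; adjusted p = 0.406). The SE of these differences is an upper bound, because the Col-0 libraries enter both tables. A gene called in one mutant against Col-0 and not in the other was thus not shown to differ between the mutants.

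Genes of the rest of the hair pathway were called in both directions after heat on the deposited scale and mostly lower by FPKM scale, as were all genes. For heat in Col-0, 30.1% of all genes were called higher and 29.9% lower in the authors' deposited table, against 6.25% and 72.5% on the FPKM scale, and the counts of the lists stand beside these shares. Of 7 other hair transcription factor genes, 2 were called higher and 0 lower for heat in Col-0 in the authors' deposited table: LRL1 at 1.38 ± 0.12 and LRL3 at 0.92 ± 0.20, both hair regulators of the same protein class, but on the FPKM scale 1 was higher and 2 lower, and LRL3 had 1.67 FPKM at 37 °C against 1.78 FPKM at 22 °C. Of 11 genes of epidermal patterning, which decides between hair and non-hair cells, 1 was higher and 5 lower (0 and 10 on the FPKM scale). The lower ones include JKD at -1.49 ± 0.21, MYB23 at -1.17 ± 0.34, the receptor kinase gene SCM at -1.01 ± 0.14 and EGL3 at -0.77 ± 0.24 in the authors' deposited table, while GL2, a repressor of hair fate in non-hair cells and the 1 higher gene, named after its value was seen, had 0.50 ± 0.13 there but -0.51 on the FPKM scale, with 1.80 FPKM at 37 °C against 2.57 FPKM at 22 °C.

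Of 25 genes of the hair growth machinery, 6 were called higher and 10 lower for heat in Col-0 in the authors' deposited table, but 0 higher and 23 lower by FPKM scale. On the deposited scale the median of these 25 was -0.47, beside -0.09 over all genes. Among genes of at least 1 FPKM the largest falls were those of RHS12 at -2.15 ± 0.30, of RBOHC, the NADPH oxidase of the hair tip, at -1.64 ± 0.20, of RHS14 at -1.41 ± 0.39 and of the proton pump gene AHA7 at -1.26 ± 0.18 in the authors' deposited table. The extensins and other hair wall genes differed from the members in direction on the deposited scale: 4 of 7 were called higher and 0 lower, with a median of 0.43, but 0 higher and 5 lower, with a median of -0.58, on the FPKM scale. In the authors' deposited table AT5G06630 had 0.61 ± 0.16, HRGP1 0.57 ± 0.21 and EXT12 0.43 ± 0.16, while on the FPKM scale these genes had -0.40, -0.44 and -0.58. The FPKM of AT5G06630 was 3.39 at 37 °C against 4.49 at 22 °C.

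The gene families of the members were mostly lower after heat. Of 17 other alpha-expansins, 13 were called lower and 0 higher for heat in Col-0 in the authors' deposited table, where their median was -1.94. By FPKM scale 16 were lower and 0 higher. EXPA1 had -3.98 ± 0.07, EXPA8 -2.82 ± 0.10, EXPA11 -2.60 ± 0.17 and EXPA15 -2.57 ± 0.18 in the authors' deposited table. Of the COBRA family, 8 of 10 other genes were tested and 4 were lower, COB at -1.41 ± 0.06 and COBL7 at -2.39 ± 0.17 among them, while COBL2 was higher at 2.69 ± 0.12 in the authors' deposited table (by FPKM scale 6 lower and 1 higher). PRP2 at -0.90 ± 0.10 and PRP4 at -0.56 ± 0.07 were both lower in the authors' deposited table. Of 5 other LRX genes, AT4G18670 at -1.35 ± 0.10 and AT3G22800 at -0.96 ± 0.31 were lower and LRX3 was higher at 0.28 ± 0.08 in the authors' deposited table, but by FPKM scale LRX3 had -0.73, and 4 were lower and 0 higher.

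Markers of other root cells moved with heat as well, and their part in the result was not tested. The summed level of the 7 endodermis markers was 15.7, 20.7 and 13.1 FPKM in sant-null, hda6 and Col-0 at 37 °C, against 36.6, 40.6 and 31.7 FPKM at 22 °C. That of 5 stele markers was 22.3, 27.5 and 24.4 FPKM, against 51.5, 62.8 and 49.7 FPKM, and that of 3 root cap markers 0.269, 0.321 and 0.272 FPKM, against 1.31, 1.17 and 0.936 FPKM. The 6 leaf mesophyll markers summed to 13589, 13916 and 13067 FPKM at 37 °C, against 16965, 15904 and 17030 FPKM at 22 °C. The sum of the 3 root meristem markers went the other way. It was 2.44, 1.18 and 1.104 FPKM at 37 °C against 1.46, 1.13 and 0.732 FPKM at 22 °C. In all 3 genotypes only WOX5 was higher, and PLT1 and PLT2 were lower. WOX5 had 2.28, 0.998 and 0.940 FPKM in sant-null, hda6 and Col-0 at 37 °C, against 0.621, 0.436 and 0.317 FPKM at 22 °C. In Col-0 PLT1 had 0.0894 against 0.249 FPKM and PLT2 0.0743 against 0.166 FPKM. The 9 hair genes summed to 6.02, 8.43 and 5.38 FPKM, against 38.3, 43.8 and 30.4 FPKM. In each genotype the sum of the hair genes was lower by a larger factor than the endodermis, stele, root cap and leaf sums, a difference that was not tested. Each sum is led by its highest genes, and single markers varied. In Col-0 the endodermis marker SCR had 1.14 against 8.56 FPKM, a larger factor than the hair sum, while CASP5 had 0.809 against 0.835 FPKM. The 17 other alpha-expansins summed to 35.4 against 343 FPKM in Col-0. A fall of this size was thus not particular to the hair genes. After heat in Col-0 the authors' deposited table had, for the endodermis, 1 higher and 2 lower of 7, for the stele 2 and 3 of 5, for the root cap 0 and 1 of 3, for the root meristem 1 and 0 of 3 and for the leaf mesophyll 5 and 1 of 6. On the FPKM scale these were 0 and 6, 0 and 5, 0 and 2, 1 and 1, and 0 and 5.

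Around the members that rose in hda6 at 22 °C, other hair genes rose too. Of the 25 growth machinery genes, 10 were called higher and 1 lower in hda6 in the authors' deposited table, beside 6.1% and 4.5% of all genes (10 and 0 by FPKM scale, beside 7.68% and 2.27%), with COW1, a lipid transfer protein gene of hair tip growth, at 0.79 ± 0.13, RHS15 at 0.77 ± 0.20, RHS10 at 0.63 ± 0.15 and RHS13 at 0.60 ± 0.10. Of the 7 extensins and other hair wall genes, 6 were called higher and 0 lower, with EXT10 at 0.87 ± 0.27, EXT12 at 0.70 ± 0.21 and HRGP1 at 0.67 ± 0.21 in the authors' deposited table. The 11 patterning genes had 0 called (DESeq2; 1 at an unadjusted p under 0.05), and of the 7 other transcription factor genes LRL3 was higher, at 0.50 ± 0.18, in the authors' deposited table.

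Most endodermis and stele markers moved the same way in hda6 at 22 °C, with 6 of 7 and 5 of 5 above 0. The endodermis marker SCR went the other way, with 7.89 FPKM in hda6 against 8.56 FPKM in Col-0. Of 7 endodermis markers 4 were higher in the authors' deposited table, with CASP5 at 1.02 ± 0.28 and CASP1 at 0.39 ± 0.10, and 3 of 5 stele markers were higher, with XCP1 at 0.40 ± 0.09 and PHO1 at 0.23 ± 0.05. At the same time 5 of 6 leaf mesophyll markers were lower (3 by FPKM scale), and none of 3 root cap and 3 root meristem markers was called (DESeq2; 0 at an unadjusted p under 0.05). Their summed levels were 40.6 FPKM in hda6 against 31.7 FPKM in Col-0 for the endodermis, 62.8 against 49.7 FPKM for the stele and 15904 against 17030 FPKM for the leaf mesophyll. Their part in the rise of the hair genes was not tested. At 37 °C, where PRP3 and LRX1 were called, 5 of 6 tested endodermis markers were higher in hda6 in the authors' deposited table, 1 of 5 stele markers and 1 of 6 leaf markers were higher, and none of the 3 lists had a gene called lower, beside 9.06% of all genes called higher and 9.41% lower.

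In sant-null at 22 °C, where LRX2 rose, 5 of 25 growth machinery genes were higher and 4 lower in the authors' deposited table, beside 8.82% and 8.98% of all genes (8 and 2 by FPKM scale, beside 12.9% and 3.72%). COW1 had 1.16 ± 0.13, RHS15 0.63 ± 0.20, RHS13 0.44 ± 0.11 and RHS10 0.43 ± 0.15 in the authors' deposited table. Of the patterning genes MYB23 at -0.73 ± 0.25 and GL2 at -0.38 ± 0.11 were lower in the authors' deposited table, a count of 2 of 11 beside 8.98% of all genes, and by FPKM scale 0 were lower and 1 was higher. Of the hair wall genes 2 of 7 were higher. No endodermis marker was called (DESeq2; 0 at an unadjusted p under 0.05), 2 of 5 stele markers were higher and 1 lower (2 and 0 by FPKM scale), and 4 of 6 leaf mesophyll markers were lower in the authors' deposited table (3 lower and 1 higher by FPKM scale). In sant-null at 37 °C COW1 was again higher, at 1.21 ± 0.13 in the authors' deposited table, where 2 of 25 growth machinery genes were higher and 2 lower, a share near the 4.72% and 4.05% of all genes.

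**Figure D5:**
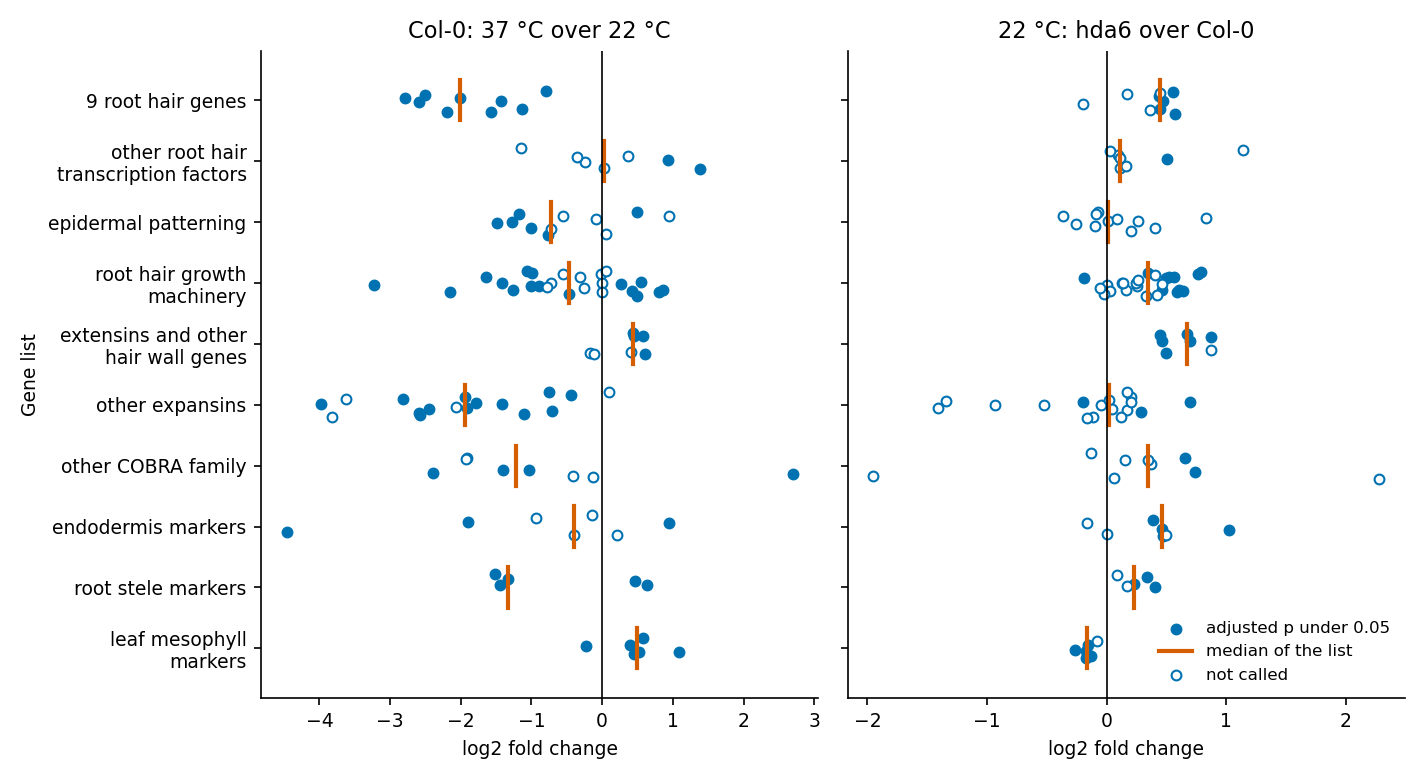
Log2 fold changes (x axis, deposited scale) of single genes of the members and of 9 other lists of hair pathway, family and marker genes (rows), with the median of each list, for heat in Col-0 (left) and hda6 over Col-0 at 22 °C (right); filled points are called at an adjusted p under 0.05. The members lie left of 0 for heat in Col-0, and the members, the growth machinery, the extensins and the endodermis markers lie mostly right of 0 in hda6 at 22 °C.

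The 9 members had alike profiles over the 6 group values, which share the same libraries and differ mostly by temperature. Pearson's r between centred log2(FPKM + 0.1) profiles ranged between 0.929 for RSL4 with EXPA7 and 0.999 for PRP1 with LRX1, as a description over 6 values. Of 15291 other genes with a mean of at least 1 FPKM, the 5 nearest to the members' mean profile by root-mean-square difference were ABCB4, an auxin transporter gene, at 0.0614, PAP9, a purple acid phosphatase gene, at 0.0771, the RING protein gene AT1G69330 at 0.0799, the homeobox gene KNAT1 at 0.0843 and PLL4 at 0.0883. ABCB4 had 0.981, 1.13 and 0.810 FPKM in sant-null, hda6 and Col-0 at 37 °C, against 5.88, 6.45 and 5.54 FPKM at 22 °C. None of these 5 was among the nearest 5 with a pseudocount of 1, with Pearson's r as the measure or with a mean of at least 5 FPKM, so the list describes this setting alone.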

How the data were processed

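Messenger RNA of 18 seedling libraries was measured, and each library's group was taken from its title. The tools listed per the submitters' processing notes are DESeq2 1.30.1, featureCounts 2.0.1, HISAT2 2.2.1 and CASAVA, with the build TAIR10. The sources used here do not give their settings, strand use or treatment of multiply matching reads. The authors deposited FPKM with 1 column per group. The authors also deposited 5 comparison tables with baseMean (a signal, the mean normalised count), log2 fold change with its standard error, a Wald score, and p-values with adjusted p-values. Depth is given as the sum of baseMean per table, because the columns hold no value per library. The few normalised counts of RSL4, RHD6, COBL9 and LRX2 at 37 °C limit their precision.

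From the deposited tables, 6 more comparisons were derived with Wald tests and Benjamini-Hochberg adjustment over all genes: heat in sant-null, heat in hda6, sant-null against hda6 at each temperature, and both heat response differences. Their standard errors are roots of summed squares of the mutant tables, an upper bound where Col-0 cancels. The derived tests were run on simulated data with normal errors and large planted changes in well-covered genes. That run does not cover genes of low counts or small changes. Intervals are 95% normal intervals. Mean normalised counts per group were computed from baseMean and fold change with equal group sizes. Genes were matched to RefSeq names and to the TAIR10.1 genome, from which locations, coding identity and the windows of 250 bases before genes were read; overlapping genes and near-identical copies are uncertain.

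The members and lists were chosen with earlier results of these data known. All 9 members are named, with up to 4 called genes per other list, those of largest absolute log2 fold change with at least 1 FPKM in a compared group, and the 5 genes nearest the members' mean profile of log2(FPKM + 0.1). Alternatives were the FPKM scale, centring, gene filters, a stricter threshold, at least 2-fold changes, pseudocounts and the subtraction of the Col-0 error. Python 3.11.15, pandas 2.3.3, numpy 2.4.6, scipy 1.17.1, biopython 1.88 and matplotlib 3.10.9 were used.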

Additional observations from a re-analysis of the deposited data

Results flagged for a closer look

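None of the 9 members was called for a difference in heat response between a mutant and Col-0 (0 at an unadjusted p under 0.05). In the related lists 8 genes were, all in hda6 minus Col-0 (Wald test of the difference, Benjamini-Hochberg adjustment), beside 5.57% of all genes called. Of the genes tested, these were 1 of 25 of the growth machinery, 3 of 13 other expansins, 1 of 2 other PRP genes and 3 of 6 leaf markers. No gene of the other lists was called. FER, a receptor kinase gene of the hair growth list, had a difference of -0.31 ± 0.08 (SE; adjusted p = 0.00475), with log2 fold changes for heat of -0.78 in hda6 and -0.47 in Col-0. Of the other expansins, EXPA4 had 0.70 ± 0.19 (adjusted p = 0.00560), with -1.74 in hda6 and -2.44 in Col-0. EXPA8 had 0.48 ± 0.15 (adjusted p = 0.0387), with -2.34 in hda6 and -2.82 in Col-0. EXPA11 had 0.84 ± 0.26 (adjusted p = 0.0290), with -1.75 in hda6 and -2.60 in Col-0. These expansin genes were thus lower after heat in both genotypes, by less in hda6. PRP4, of the family of PRP1 and PRP3, had 0.56 ± 0.12 (adjusted p = 1.87e-04), with 0.00 in hda6 and -0.56 in Col-0 on the deposited scale. Its level was lower after heat in both, at 77.3 against 161 FPKM in hda6 and 56.0 against 166 FPKM in Col-0. The leaf markers RBCS1A, CAB2 and RCA had differences of 0.37, 0.24 and 0.17, with SEs of 0.07, 0.05 and 0.05. RBCS1A and CAB2 belong to families of near-identical copies, so their values are uncertain. By FPKM scale 2 of the 13 tested expansin genes and 2 of the 6 leaf markers passed, against 3 and 3.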

How the results depend on the processing

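No paired analysis was possible because each FPKM column is 1 group's value and carries no replicate number. For the same reason the removal of each library and the limma fits were not run, so no result is known to be free of 1 library's influence. The counts of called members for heat were within 1.5 times the main count under each alternative run. In sant-null against Col-0 at 22 °C, 0 members were called higher when at least a 2-fold change was required, against 1. In hda6 against Col-0 at 22 °C the count of 5 became 2 at an adjusted p under 0.01 and 0 at 2-fold. In hda6 at 37 °C the count of 2 became 1 at an adjusted p under 0.01, 1 when adjusted over genes of at least 1 FPKM, and 0 at 2-fold. These settings are stricter or test fewer genes by construction. RSL4 passed the test for heat in sant-null on the FPKM scale, at -1.76, and nowhere else among the alternatives. No called value of the 9 members changed direction under the alternatives run. Of 53 values of other named genes, checked on the FPKM scale and centred as alternatives chosen after seeing the data, 6 reversed for heat in Col-0 on the FPKM scale: LRL3 had -0.085, GL2 -0.51, AT5G06630 -0.40, HRGP1 -0.44, EXT12 -0.58 and LRX3 -0.73. On that scale MYB23 and GL2 in sant-null at 22 °C and the differences of EXPA8 and RCA in heat response no longer passed, and the last pair did not pass when centred either. Depth limits the members at 37 °C, where RSL4 had 7.00 normalised counts in Col-0.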
